A study of Mus musculus with 4 samples.

Results

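Some neighbouring genes run towards each other on opposite strands, and the last exons of one reach into those of the other. Such tail-to-tail pairs were collected from the gene models of the deposited count tables: the exons of each gene were merged, and 2 genes on opposite strands formed a pair if they shared at least 1 exon base, neither shared an exon base with a further gene on the other strand, neither span lay within the other, and the plus-strand gene started first. The rule gave 872 pairs, or 1744 of the 50600 genes in the tables. They were 872 of 2876 one-to-one opposite-strand pairs, beside 933 head-to-head pairs, whose 5′ ends overlap, and 1071 nested pairs. No count was used to choose a pair. The libraries held RNA of primary mouse T helper 2 (Th2) cells of strain C57BL/6NJ, with 4 biological replicates of 1 group and no other treatment or genotype in the labels. The file headers place them at 48 hours of a time course of Th1 and Th2 cells, the age is unknown and the sex was not collected. The assay is labelled total RNA, while the linked library protocol is for poly(A)+ RNA. All 4 carry 1 donor identifier but separate biosamples, so p-values measure the spread between these samples.

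Th2 cells are CD4 T cells that secrete interleukin-4, interleukin-5 and interleukin-13 and help to drive responses to parasites and allergens. The end of a messenger RNA is set by a poly(A) signal, most often AAUAAA, a short distance before the cleavage site. In a convergent pair each gene's signal lies on its own strand, and the ends of the transcripts are complementary over the bases the genes share. A read from these bases lies in exons of both genes, so only its strand decides to which of them it is counted.

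The libraries held 2271993, 2112190, 2204423 and 1785970 counts of read pairs in replicates 1 to 4, of which 620127, 591835, 607486 and 428277 fell in tail-to-tail pairs. A count of 0 leaves room for a level of up to 3 counts, which is 1.32 to 1.68 CPM (counts scaled to library totals of 1000000), for counting error only. All 8 T cell markers and 5 of 6 Th2 markers stood above 3 counts in every library, with sums of 1136 to 1604 and 226 to 399 counts, and Il5 was at 0. Most of these sums lay in Cd247 (972 to 1364 counts) and Ptgdr2 (147 to 263), which are themselves in tail-to-tail pairs. Cd3e, Gata3 and Il5 are in nested pairs. Of 2 erythroid markers, Alas2, which has several overlapping genes, had 35, 33, 38 and 24 counts and Hba-a1 was at 0. Of other cell types, the 3 neutrophil and 2 NK cell markers were at 0, the 2 CD8 T cell genes summed to 2 to 4 counts, and of 4 B cell genes only Cd79a had counts (4 to 14). The 4 macrophage markers summed to 1069 to 1462 counts, nearly all in Csf1r, which is itself in a tail-to-tail pair, with Adgre1 at 0 and Lyz2 at 0, 0, 0 and 1.

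Counts were assigned with featureCounts strand setting 1, while no label or header gives the strand of the library preparation. The reads were not analysed here, so whether the setting matches that strand was not tested. With the opposite setting, read pairs in the shared bases would be assigned to the other gene of the pair. Outside the shared bases the setting also decides whether a read pair is counted for a gene at all, so those counts rest on it too. Protein-coding genes without an overlap, 16963 in number, held 6.05% ± 0.824 (SD, n = 4) of all counts. Every value is therefore the count assigned to a gene, and neither its level of transcripts nor which gene of a pair has more of them can be read from it.

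The pairs shared between 1 and 3961 exon bases, with a median of 297.5 (quartiles 116 and 663.5). In 591 pairs the shared bases formed 1 segment, and in 469 (53.8%) they all lay in the last exon of both genes. The median gene shared 10.4% of its exon bases. Both genes were protein-coding in 512 pairs, 1 of them in 283 and neither in 74, while 3 pairs held a gene without a type. The genes were long, with a median of 3337.5 exon bases against 1061 for genes without an overlap. Pairs lay on 22 chromosomes, most on chromosomes 7 (72 pairs) and 2 (70), with 22 on X and 1 on Y.

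The ends of 4 pairs are shown because their counts are described below and because both genes of each carry the poly(A) signal within 30 bases of the annotated end. Each sequence is the last 30 bases of the transcript, 5′ to 3′, from GENCODE vM21 (GRCm38), and capitals mark AATAAA.
Phykpl, chr11:51604460-51604489, plus strand: tttaaatgtAATAAAaacaaaaccccgtct
Hnrnpab, chr11:51600100-51600129, minus strand: gttttcttaAATAAAttgagggagaccttg
Ppib, chr9:66066594-66066623, plus strand: atgctgatcAATAAAgtgggttttttttat
Snx22, chr9:66065176-66065205, minus strand: ccaaggaacataaAATAAAagatgcccatg
1700022I11Rik, chr4:42983611-42983640, plus strand: ctcatattttaAATAAAatcgcattaatca
Vcp, chr4:42979963-42979992, minus strand: aaaggacAATAAAtgttgggtcaaaatgga
Exosc9, chr3:36565698-36565727, plus strand: taAATAAAatgtctccataaactactgtaa
Ccna2, chr3:36564865-36564894, minus strand: tgtaAATAAAgcatgcaaattaacccttta
In each of these pairs the minus-strand end lies upstream of the plus-strand end, so that both signals fall inside the partner's span. Very short overlaps can be printed whole, and those of 2 pairs described below are given on the plus strand, with nothing in capitals.
mt-Nd5 and mt-Nd6, chrM:13552-13565: ttaatctcgagtaa
Psme1 and Emc9, chr14:55581516-55581529: tagttgcccaccag
These overlaps are 14 bases each.

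AATAAA was searched on the transcribed strand in the last 40 bases of every gene whose end matched a GENCODE vM21 transcript. It was present at 49.2% of 1640 tail-to-tail ends, and ATTAAA without it at a further 13.2%. Among protein-coding genes the share with AATAAA was 54.8% in tail-to-tail pairs, 61.7% in head-to-head pairs, 56.9% in genes without an overlap and 57.3% in all genes. Of 780 pairs with both ends matched, 186 had AATAAA at both ends, 391 at 1 end and 203 at neither. In 538 such pairs with a summed mean of at least 10 counts, the hexamer stood at 240 ends (44.6%) of the gene with more counts and at 319 ends (59.3%) of the gene with fewer. It stood only at the end of the gene with more counts in 103 pairs and only at the other end in 182. Gene types were pooled here, and protein-coding tail-to-tail ends carried AATAAA more often (54.8%) than all tail-to-tail ends (49.2%). The part of gene type in this difference was not tested. A missing match says only that these letters are not in the window.

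Genes of tail-to-tail pairs carried more counts than those of the other arrangements. Their median level was 7.92, 7.10, 5.90 and 6.72 CPM in replicates 1 to 4, a mean of 6.91 ± 0.841 (SD, n = 4). Head-to-head genes had a median of 1.67 ± 0.226 CPM, nested genes 0.592 ± 0.198, and genes without an overlap 0 in all 4 libraries. No tail-to-tail value overlapped those of another class compared here. Genes that overlap several genes on the other strand were not among these classes. On the log2(CPM + 1) scale tail-to-tail medians exceeded head-to-head medians by 1.69, 1.49, 1.55 and 1.53, a mean of 1.56 ± 0.0902 (SD, n = 4; p = 0.13, exact two-sided sign-flip test). They exceeded those of genes without an overlap by 2.98 ± 0.154. As the median without an overlap is 0, the lowest possible level, the latter difference could not be negative. A test of its sign can therefore decide nothing, and its size depends on the scale. It was 6.12 on the log2(CPM + 0.1) scale and 1.99 on the log2(TPM + 1) scale (TPM being counts per exon length, scaled to 1000000). Among genes with a mean of at least 1 count, tail-to-tail exceeded head-to-head medians by 1.02 ± 0.0684. The sign-flip p of the head-to-head difference stands for 2 of 16 sign patterns, and a test over 4 libraries can give none smaller. Among protein-coding genes the medians were 9.43 ± 1.23 CPM in tail-to-tail pairs, 2.27 ± 0.344 in head-to-head pairs, 1.07 ± 0.189 in nested pairs and 0 without an overlap. Because longer genes can collect more counts, the comparison was repeated with TPM, a share of counts per exon base. On the log2(TPM + 1) scale tail-to-tail medians exceeded head-to-head medians by 1.26 ± 0.0666.

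At least 1 count was found for 75.2% ± 1.05 of tail-to-tail genes, 62.5% ± 0.470 of head-to-head genes and 20.0% ± 0.714 of genes without an overlap (SD, n = 4). Together the 872 pairs held 27.3%, 28.0%, 27.6% and 24.0% of all counts in replicates 1 to 4, or 26.7% ± 1.85. The low value in replicate 4 stands beside a larger share of CT010467.1 and Gm42418, which held 15.9% of its counts and 3.25% to 5.02% of those of the others. Outside these genes the tail-to-tail share was 28.6%, 29.0%, 29.0% and 28.5%. Head-to-head pairs held 9.98% ± 0.733 and nested pairs 15.7% ± 1.01 of all counts. A few pairs made up much of the sum: the pair with most counts held 10.1% ± 0.335 of the tail-to-tail counts, the first 10 held 29.3% ± 0.378 and the first 50 held 55.5% ± 0.449.

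**Figure D1:**
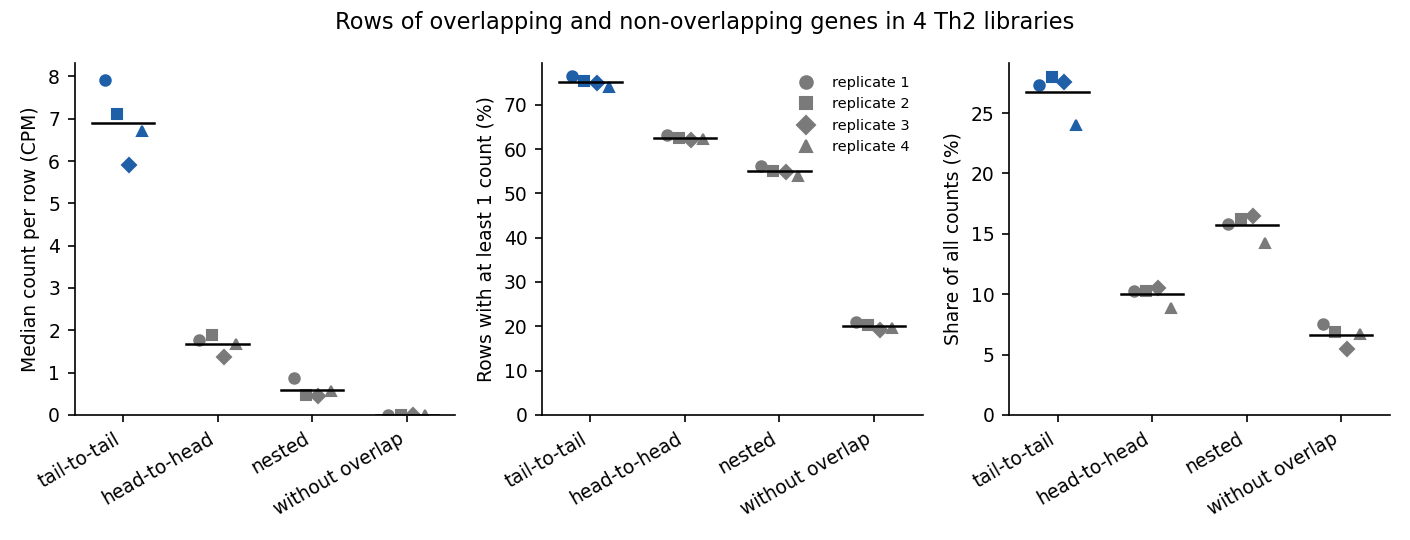
Median CPM per gene (left), percent of genes with at least 1 count (middle) and percent of all counts (right) for genes of tail-to-tail, head-to-head and nested pairs and genes without an overlap. Symbols are the 4 libraries and lines their means. The tail-to-tail medians, 5.90 to 7.92 CPM, lie above those of the other classes shown, and replicate 4 has the lowest tail-to-tail share of counts, 24.0%. Genes that overlap several genes on the other strand are not shown.

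Within a pair the counts were mostly on 1 gene. Of 593 pairs with at least 10 counts in every library, the higher gene held a median of 92.9%, 94.1%, 94.4% and 93.1% of the pair's counts, or 93.6% ± 0.773 (SD, n = 4). The same gene was higher in all 4 libraries in 561 of them, the plus-strand gene in 297 and the minus-strand gene in 264, and the order was not the same in 32. The higher gene held at least 90% in every library in 312 pairs and at least 99% in 55, while it stayed under 60% in 13. Both genes were at 0 in all libraries in 124 of the 872 pairs, 1 of them in 86, and both stood above 3 counts in every library in 406. With the same minimum of 10 counts, the higher gene's median share was 95.1% ± 0.786 in head-to-head and 97.8% ± 0.401 in nested pairs. Uneven counts are thus not particular to tail-to-tail pairs.

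The plus-strand gene was tested against the minus-strand gene with edgeR's quasi-likelihood test, with the library as a block. Of 609 tail-to-tail pairs tested, 568 (93.3%) differed at an adjusted p under 0.05, with the plus-strand gene higher in 300 and the minus-strand gene in 268. Over all 1625 one-to-one pairs tested the called share was 94.6% (48.6% with the plus-strand and 46.0% with the minus-strand gene higher), so the share in tail-to-tail pairs was near that of all pairs. The median size of the log2 ratio was 3.76 in tail-to-tail, 4.06 in head-to-head and 5.33 in nested pairs. The higher gene's median share of a pair's counts was lower in tail-to-tail than in head-to-head pairs by 1.54, 0.90, 1.77 and 1.64 percentage points (mean difference −1.46 ± 0.383, SD, n = 4; p = 0.13, exact two-sided sign-flip test). Across pairs the levels of the 2 genes had a Spearman correlation of 0.521 ± 0.0250 over the 872 pairs of each library, against 0.605 ± 0.0264 in head-to-head pairs. This is a description, since the points share a library and its depth.

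**Figure D2:**
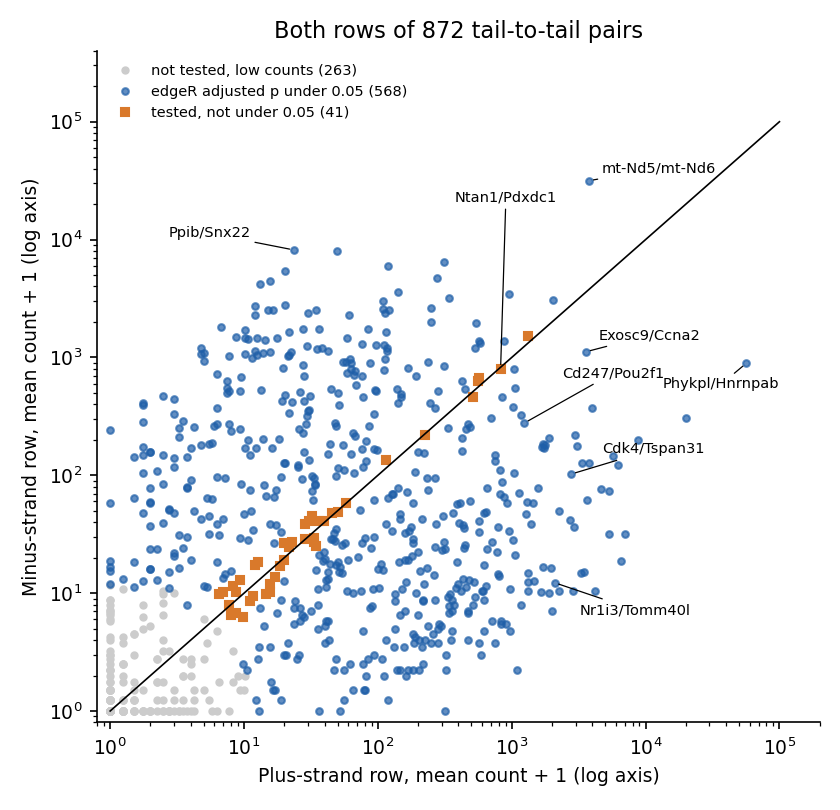
Mean count over 4 libraries, plus 1, of the plus-strand gene (x axis) and the minus-strand gene (y axis) of each of the 872 tail-to-tail pairs, on log axes. Points are coloured by the edgeR test of the 2 genes, 568 pairs being under 0.05, and the line marks equal counts. Most pairs with high counts lie far from the line on one side or the other.

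The pair with most counts was Phykpl, which encodes a lyase of hydroxylysine breakdown, and Hnrnpab, which encodes an RNA-binding protein, whose ends are printed above. They share 809 bases, and Phykpl held 98.5% ± 0.232 of the pair's counts (SD, n = 4). The mitochondrial pair followed: mt-Nd5 and mt-Nd6 encode subunits of respiratory complex I on opposite strands and share 14 bases. The counts of mt-Nd5 were 3494, 3721, 4684 and 3298, and those of mt-Nd6 35832, 35718, 31121 and 23842. Every mt-Nd6 count was above every mt-Nd5 count, by 8.43 ± 1.76-fold (SD, n = 4). Without this pair the others held 25.6%, 26.2%, 25.9% and 22.5% of all counts, an alternative chosen after the counts were seen.

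Hsp90b1, which encodes a chaperone of the endoplasmic reticulum, had 403, 286, 266 and 257 counts. Its partner 1810014B01Rik, typed as a pseudogene, had 21961, 21059, 22207 and 14311. Ppib, which encodes cyclophilin B, a protein-folding enzyme, had 28, 20, 21 and 21 counts. Snx22, which encodes a sorting nexin, had 9050, 8396, 9012 and 6216, so that it held 99.7% ± 0.0519 of the pair's counts. In both pairs the groups of 4 values were far apart.

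Vcp, which encodes an ATPase that extracts ubiquitinated proteins, had 39, 31, 26 and 26 counts, and its partner 1700022I11Rik had 7683, 7430, 7511 and 5267. Psmb7, which encodes a catalytic subunit of the proteasome, had 21, 22, 14 and 14 counts, opposite the mitotic kinase gene Nek6 with 7213, 6960, 6988 and 4858. The edgeR log2 ratio of Nek6 over Psmb7 was 8.51 ± 0.189 (SE). Phb2, which encodes prohibitin 2 of the inner mitochondrial membrane, had 36 to 76 counts, against 6355 to 8707 of the antisense gene Gm15884. Apex1, which encodes the endonuclease of base excision repair, had 83 to 165 counts, against 4658 to 6674 of the lipid phosphatase gene Pip4p1. These values again did not overlap within a pair.

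Supt16 encodes a subunit of the histone chaperone FACT and had 122 to 156 counts, while Rpgrip1, known for its role in the cilium of photoreceptors, had 6380, 5948, 6243 and 4279. Gspt1, a translation termination factor gene, had 79 to 172 counts opposite the antisense gene 2610020C07Rik with 4774 to 6845. Mak16, a ribosome assembly factor gene, had 174 to 228 counts opposite Tti2 with 6600 to 9684, and the splicing factor gene Srsf4 had 241 to 365 opposite Gm12992 with 5199 to 7141. Each of these 12 pairs with most counts passed the edgeR test, with adjusted p from 5.59e-23 to 6.74e-17.

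Among pairs with a summed mean of at least 100 counts, the largest ratios were those of Gm26809/Gm20186 and mt-Ti/mt-Tq, whose lower gene had 0 counts. Other named pairs with large ratios had a lower gene above 3 counts in every library, such as Psmb7 (14 to 22 counts) and Ppib (20 to 28). Gm26809 had 329, 315, 387 and 232 counts and Gm20186, another long non-coding RNA gene with 855 shared bases, had 0 in every library. Against a floor of 3 counts per library Gm26809 was at least 105 ± 21.3-fold higher (SD, n = 4). The mitochondrial tRNA genes mt-Ti and mt-Tq share 3 bases: mt-Ti had 0 counts in every library and mt-Tq had 265, 274, 229 and 196, at least 80.3 ± 11.9-fold higher. These bounds cover counting error only.

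Wdr89, which encodes a WD-repeat protein, had 4, 0, 1 and 0 counts opposite an unnamed gene (ENSMUSG00000100259.1) with 1140, 1071, 1172 and 955. The histone methyltransferase gene Suv39h1 had 8, 6, 3 and 7 counts opposite Gm14820, an antisense gene, with 2220, 2123, 2179 and 1444. Mob3a, which encodes a kinase adaptor, had 12, 12, 6 and 8 opposite Gm26541 with 4565, 4283, 4647 and 3213. In the other direction, Zmat5 had 2, 1, 0 and 0 opposite Cabp7, a calcium-binding protein gene, with 443, 410, 435 and 354. Lrrc61 had 0, 0, 1 and 2 opposite Rarres2, the gene of chemerin, with 436, 399, 445 and 282, and Arfgap2, a gene of vesicle transport, had 14, 13, 9 and 13 opposite 1110051M20Rik with 4567, 4382, 4648 and 3326.

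A few pairs were even. Milr1, which encodes a mast cell immunoglobulin-like receptor, and Polg2, which encodes the accessory subunit of the mitochondrial DNA polymerase, share 132 bases. Milr1 had 69, 60, 63 and 36 counts and Polg2 71, 60, 64 and 32, and their log2 ratio was 0.01 ± 0.196 (SE, edgeR adjusted p = 0.942). Ntan1, which encodes an amidase of N-terminal asparagine, had 913, 827, 913 and 645 counts, and Pdxdc1, which shares 713 bases with it, had 852, 799, 915 and 643. Their log2 ratio was 0.04 ± 0.117 (SE, edgeR adjusted p = 0.755). The values of both pairs overlapped, and at these SEs a small difference could not be told from none.

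Tfip11, a gene of spliceosome disassembly, had 564, 547, 575 and 349 counts against 502, 473, 523 and 357 of Srrd (edgeR adjusted p = 0.344). Cebpzos had 627, 617, 590 and 402 against 720, 664, 694 and 462 of Cebpz (edgeR adjusted p = 0.142), and Usp16, a histone deubiquitinase gene, 241, 248, 215 and 188 against 275, 243, 206 and 147 of the chaperonin gene Cct8 (edgeR adjusted p = 0.703). Per exon base these 5 pairs were no longer even: the log2 ratio was 1.91 for Ntan1 over Pdxdc1, 1.66 for Cebpzos over Cebpz, 0.83 for Milr1 over Polg2, −1.20 for Tfip11 over Srrd and −1.56 for Usp16 over Cct8, each past the edgeR threshold.

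The level of the higher gene was greater in pairs that shared more bases. Its median was 10.9 ± 1.88 CPM in 109 pairs with 1 to 50 shared bases, 13.4 ± 0.496 in 232 pairs with 51 to 200, 44.7 ± 3.65 in 251 pairs with 201 to 500, 135 ± 8.33 in 141 pairs with 501 to 1000, and 167 ± 14.4 in 139 pairs with 1001 to 3961 (SD, n = 4). The 4 values of a class lay above those of the class before it in each case, with the narrowest gaps between the first 2 classes, at 8.17 to 12.3 and 12.8 to 14.0 CPM, and the last 2, at 124 to 144 and 147 to 180 CPM. The lower gene's median was 2.40, 1.02, 2.02, 4.17 and 6.60 CPM in the same classes. A summed count above 3 was found in 86.5% ± 1.23 of the pairs with the longest overlaps and in 74.3% ± 1.30 of those with the shortest.

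In head-to-head pairs the higher gene's median was 3.11, 4.77, 21.2, 8.62 and 2.24 CPM in the same classes of 86, 385, 313, 110 and 39 pairs. Over 1000 shared bases the tail-to-tail median exceeded the head-to-head median by 6.24, 5.97, 5.05 and 5.79 on the log2(CPM + 1) scale, a mean of 5.76 ± 0.509 (SD, n = 4; p = 0.13, exact two-sided sign-flip test). With 501 to 1000 bases the difference was 3.84 ± 0.152, with 201 to 500 bases 1.04 ± 0.118, with 51 to 200 bases 1.32 ± 0.205, and with 1 to 50 bases 1.53 ± 0.132, so it did not fall steadily with shorter overlaps. Gene type moved with it: in pairs of 2 protein-coding genes the differences from the longest class to the shortest were 0.94 ± 0.0920, 0.94 ± 0.0297, 0.45 ± 0.0886, 0.44 ± 0.132 and 0.10 ± 0.206. These rest on 92, 82, 118, 135 and 85 tail-to-tail pairs and on 5, 21, 94, 121 and 19 head-to-head pairs. The comparison by class was added after the counts were seen.

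Across the 1744 genes the Spearman correlation of count with shared bases was 0.239 ± 0.00447 in a library, and 0.315 ± 0.00696 in pairs of 2 protein-coding genes, against 0.0898 ± 0.00311 in head-to-head pairs. The correlation of count with a gene's own exon length was 0.195 ± 0.00866, and it was −8.66e-05 ± 0.0106 among genes with a mean of at least 1 count, where that with shared bases was 0.246 ± 0.00690. These correlations are descriptions over genes that share libraries, and 2 genes of a pair share one value of overlap.

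**Figure D3:**
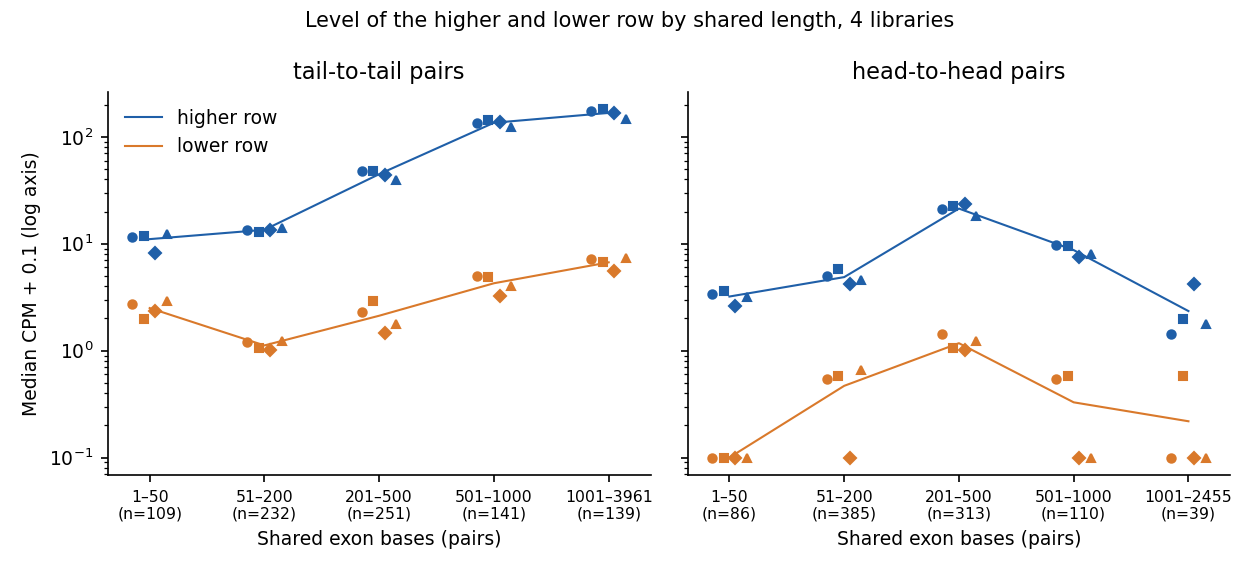
Median CPM plus 0.1 of the higher and lower gene of a pair by number of shared exon bases, for tail-to-tail (left) and head-to-head pairs (right), on a log axis. Symbols are the 4 libraries (circle, square, diamond and triangle for replicates 1 to 4) and lines join their means. The higher gene of tail-to-tail pairs goes from 10.9 CPM with the shortest overlaps to 167 CPM with the longest. In head-to-head pairs it goes from 3.11 CPM up to 21.2 CPM with 201 to 500 shared bases and down to 2.24 CPM with the longest (39 pairs).

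In 283 pairs a protein-coding gene met a gene of another type, such as a long non-coding RNA or pseudogene. Of 171 with a summed mean of at least 10 counts, the gene that is not protein-coding was higher in all 4 libraries in 152, the protein-coding gene in 14, and the order varied in 5. This order is one of assigned counts and rests on the strand setting. Mixed pairs of the other arrangements were not counted in this way, so whether the order is particular to tail-to-tail pairs was not tested. Of all counts, tail-to-tail genes held 26.7% and the protein-coding ones among them 20.4%. Head-to-head genes held 9.98% and the protein-coding ones 4.85%, and nested genes 15.7% and 2.00%. The median log2 ratio of the non-coding over the coding gene, with 1 added to each count, was 4.88, 4.91, 5.26 and 4.67, a mean of 4.93 ± 0.243 (SD, n = 4; p = 0.13, exact two-sided sign-flip test). Beyond a summed mean of 100 counts it was higher in 113 of 118 pairs. The mean ratios left a gap, from 0.75 to 8.67 in the 113 pairs and from −7.44 to −3.73 in the other 5.

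Hif1a, which encodes the oxygen-sensing transcription factor, had 48, 31, 29 and 27 counts, and its antisense partner Gm15283 had 2556, 2677, 2948 and 1970. Rgs16, which encodes a regulator of G protein signalling, had 20, 13, 7 and 6 counts opposite Gm28513 with 1602, 1633, 1388 and 1188. Keap1, which encodes the sensor of oxidative stress that binds Nrf2, had 200, 169, 195 and 160 opposite Gm16754 with 1838, 1973, 1926 and 1335. These 3 pairs were chosen after their values were seen, as genes with known roles in T cells or stress. None of their values overlapped, and each passed the edgeR test, at adjusted p = 7.20e-22, 1.18e-21 and 1.94e-18.

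The 5 exceptions beyond 100 counts were also chosen by their values. Mcmdc2, a meiosis gene, had 698, 696, 621 and 529 counts opposite Snhg6, a small nucleolar RNA host gene, with 14, 8, 10 and 10. St6galnac2, a sialyltransferase gene, had 549, 467, 417 and 341 opposite 1810032O08Rik with 3, 4, 0 and 1. Spdya, which encodes an activator of cyclin-dependent kinases, had 219, 201, 189 and 135 opposite Trmt61b, typed as antisense in the annotation, with 2, 8, 0 and 1. Hspa1l, a heat shock protein gene known from testis, had 150, 123, 103 and 96 opposite Gm10501 with 1, 0, 0 and 0. The last was mt-Co1 over the tRNA gene mt-Ts1, described below. In these pairs the protein-coding gene was the one with more counts in every library.

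**Figure D4:**
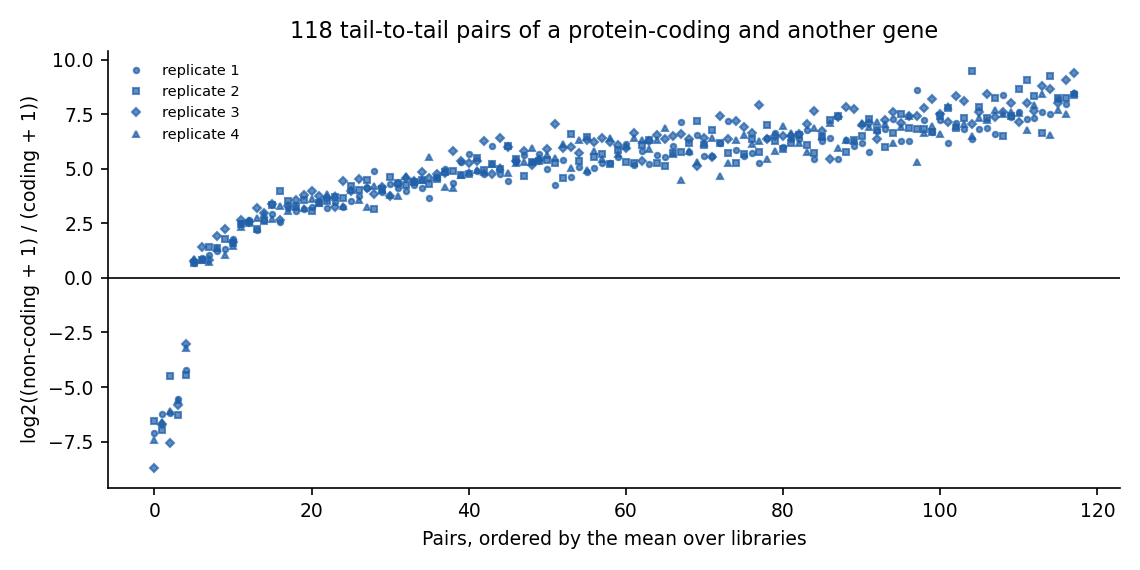
Log2 ratio of the count of the gene that is not protein-coding over that of the protein-coding gene (1 added to each) in 118 tail-to-tail pairs with a summed mean of at least 100 counts, ordered by their mean. Symbols are the 4 libraries and the line marks equal counts. In 113 pairs all libraries lie above the line and in 5 all lie below it, with no pair between mean ratios of −3.73 and 0.75.

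Genes of 8 lists covering T cell identity and general cell functions, 299 genes in all, were looked up among the pairs. A tail-to-tail pair held 1 or 2 of them in 35 cases, and 33 pairs held exactly 1. In 21 of the 33 the opposite gene was higher in all 4 libraries, in 9 the list gene was, and in 3 the order varied (Rfc2, Fip1l1 and Cct8, of which Rfc2 is named after its values were seen). The median log2 ratio of the opposite over the list gene was 2.14, 2.53, 2.56 and 2.81, a mean of 2.51 ± 0.275 (SD, n = 4; p = 0.13, exact two-sided sign-flip test). This comparison was added after the counts were seen. In 14 head-to-head pairs with 1 list gene the opposite gene was higher in 7, with a median ratio of 1.92 ± 0.389.

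Both pairs with exactly 1 gene of the T cell list had that gene higher. The list holds 46 genes, and T cell genes outside it were not counted here. Cd247, which encodes the zeta chain of the T cell receptor complex, had 1360, 1364, 1278 and 972 counts, and Pou2f1, the gene of the transcription factor Oct-1 with 3007 shared bases, had 330, 267, 331 and 180. Ptgdr2, which encodes the prostaglandin D2 receptor CRTH2 of Th2 cells, had 249, 263, 216 and 147 opposite Ccdc86 with 24, 7, 5 and 8. The log2 ratios were 2.19 ± 0.131 for Cd247 and 4.33 ± 0.254 for Ptgdr2 (SE; edgeR adjusted p = 7.76e-15 and 5.70e-15). Cd247 made up most of the T cell marker sum, while Cd3d, Cd3e and Cd3g had 6 to 29 counts each.

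Stat5a and Stat3, which encode transcription factors of cytokine signalling, form a pair with each other and share 72 bases. Stat5a had 51, 53, 26 and 35 counts and Stat3 171, 153, 119 and 157, and Stat3 was higher in every library (edgeR adjusted p = 3.54e-10). Il27ra, which encodes the interleukin-27 receptor and shares only 2 bases with Palm3, had 6, 5, 6 and 5 counts against 157, 158, 138 and 128. The next 3 immune genes were chosen after their values were seen, 1 from the lower and 2 from the higher side of their pairs. Nfkb2, a gene of the NF-kappaB family, had 96, 92, 86 and 60 counts opposite Psd with 2025, 1779, 1838 and 1388. Irf5, an interferon response factor gene of myeloid and B cells, had 3180, 3067, 3248 and 2082 counts opposite Tnpo3, a nuclear import factor gene, with 47, 42, 23 and 31. Csf1r, the macrophage growth factor receptor gene, had 1409, 1363, 1457 and 1066 opposite Hmgxb3 with 16, 9, 4 and 9, while the defining macrophage gene Adgre1 was at 0.

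Of the 5 pairs with a gene of messenger RNA 3′ end formation, the opposite gene was higher in 4. Cpsf7, which encodes a subunit of cleavage factor I, had 16, 25, 17 and 16 counts opposite the cilium gene Tmem216 with 899, 877, 916 and 587. Cstf2, which encodes the cleavage stimulation factor that binds downstream of the poly(A) site, had 26, 20, 22 and 19 opposite the NADPH oxidase gene Nox1 with 524, 405, 479 and 255. Ssu72, which encodes a phosphatase of RNA polymerase II, had 35, 32, 33 and 15 opposite the antisense gene 1500002C15Rik with 1425, 1323, 1243 and 975. Fip1l1, a gene of the polyadenylation complex, was even with Lnx1 in counts, at 158, 91, 115 and 91 against 147, 148, 142 and 96 (edgeR adjusted p = 0.167). These counts were not scaled to exon length, and Fip1l1 has 13122 exon bases against 3829 of Lnx1.

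All 4 pairs with a gene of double-stranded RNA sensing and processing had the opposite gene higher. Adar, which encodes the enzyme that edits adenosines in double-stranded RNA, had 13, 10, 3 and 11 counts, and Chrnb2, a subunit gene of neuronal acetylcholine receptors, had 1741, 1688, 1961 and 1408. Ago2, which encodes the slicer of RNA interference, had 38, 39, 40 and 24 opposite the chromatin remodelling gene Chrac1 with 957, 807, 825 and 557. Ilf2, which encodes a double-stranded RNA-binding protein, had 66, 42, 41 and 48 opposite Snapin with 595, 437, 600 and 378. Dhx58, which encodes the RNA sensor LGP2, had 0, 0, 0 and 1 opposite Dhx58os with 17, 18, 24 and 13. The 4 pairs differed in size but not in direction.

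Cell cycle genes went both ways, with the opposite gene higher in 5 of 7 pairs when Rfc4 is counted. Cdk4, the cyclin D-dependent kinase gene, had 3143, 2826, 2980 and 2198 counts against 104, 98, 107 and 97 of the tetraspanin gene Tspan31, while Ccnd3, the gene of its partner cyclin D3, had 134, 117, 128 and 104 against 2798, 2589, 2750 and 1925 of the ribosome assembly gene Bysl. Ccna2, the cyclin A2 gene, had 1292, 1154, 1183 and 841 counts against 3640, 3832, 4001 and 2914 of the exosome subunit gene Exosc9, whose ends are printed above. Orc1, a gene of the origin recognition complex, had 19, 16, 11 and 7 opposite Gm12743 with 1439, 1539, 1530 and 1081. Rfc4, a gene of the replication clamp loader, had 12, 9, 10 and 10 opposite Eif4a2, itself a list gene of translation, with 459, 524, 480 and 359. So Cdk4 and Ccnd3, whose proteins act together, lay on opposite sides of their pairs.

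Among splicing factors Hnrnpab and Srsf4 were the lower genes, and Hnrnpu, which encodes a nuclear matrix protein, was the higher one, with 1329, 1212, 1231 and 1022 counts against 689, 622, 461 and 336 of the cytochrome oxidase assembly gene Cox20. Per exon base this pair turned, with Cox20 over Hnrnpu at a log2 ratio of 2.49. Of the genes of protein synthesis and folding, Eif5b had 1258, 1193, 1159 and 921 counts against 87, 58, 70 and 62 of the translesion polymerase gene Rev1, and only Hsp90b1 was lower than its partner in every library. In metabolism Pfkp, a phosphofructokinase gene of glycolysis, had 1162, 1137, 1121 and 745 against 18, 23, 21 and 21 of Pitrm1, and Gapdh, named here after its values were seen, had 249, 217, 157 and 193 against 23, 24, 5 and 17 of Iffo1. These were the higher genes of their pairs.

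The glucose transporter gene Slc2a1 was on the lower side, with 14, 18, 4 and 10 counts opposite Gm12868 with 1189, 1025, 1148 and 866. Tpi1, the triose phosphate isomerase gene, shares 34 bases with Spsb2 and had 217, 133, 119 and 150 against 233, 220, 248 and 182 (log2 ratio of Spsb2 over Tpi1 0.53 ± 0.160, SE, edgeR adjusted p = 0.00291). Of 4 genes of protein breakdown, 3 were lower than their partners: Vcp, Psmb7 and Psme1. Psme1, a proteasome activator gene whose 14 shared bases are printed above, had 120, 89, 101 and 66 counts against 533, 520, 601 and 479 of Emc9. Psmc3, a proteasome ATPase gene, had 117, 115, 98 and 101 against 20, 8, 17 and 14 of the zinc transporter gene Slc39a13.

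**Figure D5:**
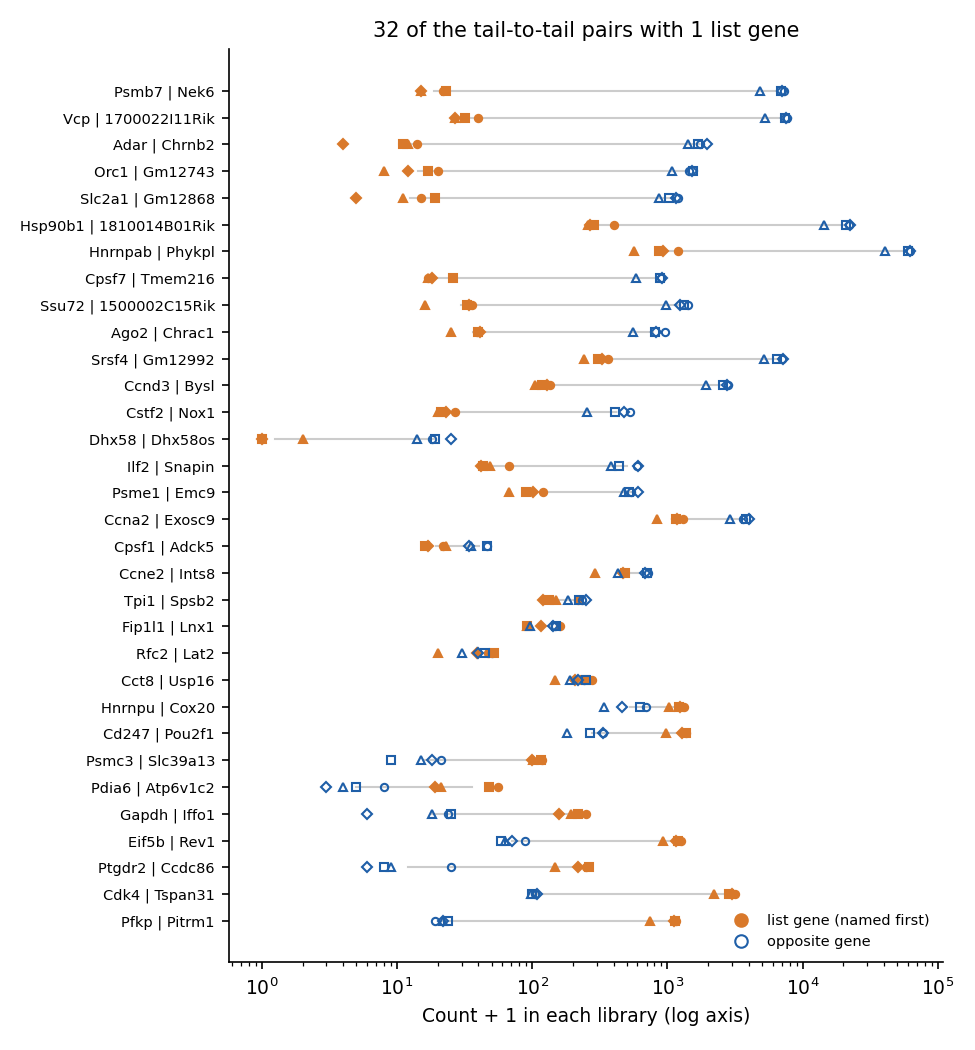
Counts plus 1 in each library, on a log axis, of 32 of the 33 tail-to-tail pairs with exactly 1 gene of the 8 lists, ordered by the ratio of their means. Filled symbols are the list gene (named first) and open symbols its partner, with circle, square, diamond and triangle for replicates 1 to 4 and a grey line between the means. The partner lies to the right in 20 of the pairs shown and the list gene in 9.

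The longest overlaps among pairs of at least 100 counts were those of Sp6 and Gm11532 (3329 bases), Nr1i3 and Tomm40l (3304) and Cd247 and Pou2f1 (3007). Nr1i3 encodes the constitutive androstane receptor of the liver and had 2337, 2172, 2244 and 1623 counts, against 13, 12, 8 and 12 of Tomm40l, a gene of mitochondrial import. Sp6, a transcription factor gene of tooth and skin, had 5, 1, 2 and 3 counts against 128, 133, 193 and 112 of Gm11532. The shortest were 2 bases. Srrm2, a splicing gene, had 152, 135, 112 and 135 counts and Elob, the gene of elongin B, 9, 10, 8 and 8, although per exon base the log2 ratio of Srrm2 over Elob was −0.50 (edgeR adjusted p = 0.103). Ezr, which encodes ezrin of the cell cortex, had 137, 88, 120 and 85 counts and Sytl3 2, 0, 1 and 2. Long and short overlaps alike held pairs with far more counts on one gene. With 2 shared bases nearly all exon positions belong to only 1 gene of the pair, and counts there rest on the strand setting too.

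Of 868 tail-to-tail genes tested with edgeR's goodness of fit, 1 varied at an adjusted p under 0.05, against 0.454% of all 5064 genes tested. A gene that was not called may still vary. At an unadjusted p under 0.05 it was 25 (2.88%) against 5.13% of all genes. The gene was mt-Co1, which encodes a subunit of cytochrome c oxidase, with 687, 788, 355 and 429 counts (edgeR adjusted p = 8.97e-05), so that replicates 1 and 2 were higher than 3 and 4. Its partner mt-Ts1 had 36, 35, 43 and 45 counts and shares 3 bases with it, and per exon base mt-Ts1 was the higher (log2 ratio of mt-Co1 over mt-Ts1 −0.72). Without replicate 2 no gene was called, and without replicate 3 mt-Co1 was not called while Rps6kb2, which encodes a kinase of ribosomal protein S6, was.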

How the data were processed

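RNA of 4 Th2 libraries was analysed, mapped to 1 group by the cell type in the labels. The authors deposited raw counts, whole numbers of read pairs without normalization. Per the file headers these were made by featureCounts 1.4.6-p4, which summed the exons of GENCODE vM13 (mm10) per gene, required both mates to map and used strand setting 1. The strand of the library preparation is not given in the sources used here, and whether the setting matches it was not tested. The alignment carries the name of STAR, whose version is not given in the sources used here. GENCODE vM21 gave names, types and transcript ends, and 224 genes had no match in it.

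Pairs were built from the exon columns of these tables. Row splits were tested in edgeR 4.0.16 (R 4.3.3) by quasi-likelihood with library as a block and totals as library sizes, over all one-to-one pairs with at least 10 summed counts in 3 or more libraries, and Benjamini-Hochberg adjustment at 0.05. SEs of log2 ratios follow from the ratio and its F statistic. Variation between replicates was tested by edgeR goodness of fit with trended dispersion and TMM factors. Single values were tested by exact sign flips over 4 libraries. Both edgeR tests were tested on simulated data. Library pairs differed beyond counting noise, with chi-square per degree of freedom of 1.72 to 2.79. Floors take in counting error alone, as no molecular identifiers mark the read pairs.

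The members, the 8 gene lists and the tests were chosen with earlier results of these data known. Named pairs are the 12 with most counts and, among pairs with a summed mean of at least 100, the 5 highest, 5 lowest and 5 most even log2 ratios, the 3 longest and 3 shortest overlaps, up to 4 pairs per list, and pairs with a gene that varied between replicates. Pairs outside this rule were chosen after their values were seen. Some values are not reported here. Alternatives were DESeq2 1.42.0, limma 3.58.1, other filters, pseudocounts (0.1), scales and gene types, and leaving out each replicate. Other steps used pandas 2.3.3, SciPy 1.17.1, numpy 2.4.6 and Matplotlib 3.10.9 under Python 3.11.15.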

Additional observations from a re-analysis of the deposited data

Results flagged for a closer look

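Of 134 sets of 4 library values for named pairs, 7 had a sample farther from the others than Dixon's 95% limit, and chance flags about 1 in 20 such sets. In 5 of them replicate 4 was low in the summed CPM of a pair. Phykpl and Hnrnpab summed to 23170 CPM there, against 27930 to 28770 in the others. Rpgrip1 and Supt16 summed to 2464 CPM, Ccnd3 and Bysl to 1136, Nr1i3 and Tomm40l to 915.5, and Gm14820 and Suv39h1 to 812.4, below 2877, 1281, 1022 and 980.6 as the lowest of the others. In replicate 4 the genes CT010467.1 and Gm42418 held 15.9% of the counts, against 3.25% to 5.02% elsewhere, and their part in these values was not tested pair by pair.

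The other 2 were ratios between the genes of a pair. The log2 ratio of Gm26541 over Mob3a was 9.482 in replicate 3, where Mob3a had 6 counts, against 8.421 to 8.562 in the others. The log2 ratio of Cstf2 over Nox1 was −3.712 in replicate 4, against −4.414 to −4.306 in the others. Before scaling, Nox1 had 255 counts there, against 405 to 524, and Cstf2 had 19, against 20 to 26.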

How the results depend on the processing

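The tail-to-tail share of all counts was 28.77% outside CT010467.1 and Gm42418, 24.48% with at least 50 shared bases and 47.71% with genes of several partners let in. The higher gene held 95.93% with at least 100 counts in every library, 94.56% per exon base and 94.45% with at least 50 shared bases. The correlation of count with shared bases was 0.2462 among genes of at least 1 count and 0.3148 in pairs of 2 protein-coding genes, and that with exon length −8.665e-05 and 0.1497. The number of genes that varied between replicates was 0 with no filter (43 at an unadjusted p under 0.05), 3 with a common dispersion (mt-Co1, Rps6kb2 and Shmt2) and 0 to 1 when a replicate was left out. Called row splits numbered 553 with DESeq2, 570 with limma and 574 per exon base of 609 pairs, 619 of 748 with no filter, and 548 to 559 when a replicate was left out. Per exon base the log2 ratio reversed in 6 of 55 named pairs: 2.488 for Cox20/Hnrnpu, 1.664 for Cebpzos/Cebpz, −1.196 for Tfip11/Srrd, −0.7195 for mt-Co1/mt-Ts1, −1.557 for Usp16/Cct8 and −0.5036 for Srrm2/Elob. Leaving out a replicate moved the ratios of the even pairs Usp16/Cct8 and Milr1/Polg2 between −0.03464 and 0.1432 and between −0.02176 and 0.0378, with the sign reversed without replicate 4. The cause was not tested. Level differences from head-to-head pairs, 1.024 among genes with a mean of at least 1 count against 1.563 among all, stayed above 0 in the alternatives run, except that with 1 to 50 shared bases 3 of 4 libraries were at 0 in pairs of 2 protein-coding genes. Low counts, 3 or fewer in 1 gene of many pairs, limit the ratios.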

Other observations

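Further pairs with many counts, chosen after their values were seen, held genes of signalling, adhesion and metabolism. Ctnnb1, which encodes beta-catenin, had 37, 14, 10 and 16 counts opposite the kinase gene Ulk4 with 5911, 5770, 5932 and 4161. Pdha1, a subunit gene of pyruvate dehydrogenase, had 65, 75, 57 and 47 opposite the kinase gene Map3k15 with 4051, 3659, 4145 and 2663. Acadvl, a gene of fatty acid oxidation, had 84, 78, 79 and 60 opposite Dvl2, a gene of Wnt signalling, with 5058, 5060, 4912 and 3435. In each of these pairs the 4 values of one gene lay far above those of the other.

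Sla2, which encodes an adaptor that restrains T cell receptor signalling, had 4111, 3890, 3851 and 2588 counts opposite Rab5if with 145, 152, 155 and 108. Has3, a hyaluronan synthase gene, had 3656, 3579, 3758 and 2751 opposite Chtf8 with 14, 13, 17 and 12. Krr1, a ribosome assembly gene, and Glipr1, which share 352 bases, were near even, with 1556, 1346, 1353 and 1048 against 1588, 1633, 1701 and 1184 (log2 ratio −0.20 ± 0.117, SE, edgeR adjusted p = 0.0996).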
